A study of Arabidopsis thaliana with 10 samples.

Results

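Expansins and xyloglucan endotransglucosylase/hydrolases (XTH) are the main families of wall-loosening proteins in plants. They were taken as all probe sets paired with exactly 1 gene whose platform or RefSeq symbol began with EXPA, EXPB, EXLA, EXLB or XTH and a number. The rule gave 31 genes (32 probe sets) of the 16542 genes with a probe set of their own. The brightest probe set stood for EXPA20, which has 2. The 31 genes were 13 α-expansins (EXPA), 5 β-expansins (EXPB), 3 expansin-like A genes (EXLA), 1 expansin-like B gene (EXLB) and 9 XTH genes. RefSeq lists 63 protein-coding genes with such symbols, and the other 32 were not analysed here.

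Gene expression was measured with Affymetrix arrays in roots of Arabidopsis thaliana, wild type of the Col background (WT) and the mutant bts-3. Plants of both genotypes spent 2 weeks on B5 medium and then 3 days with iron (+Fe) or without it (-Fe). WT had 2 arrays on each medium and bts-3 had 3, and the series text calls them biological replicates. BTS stands for BRUTUS, a ubiquitin ligase that holds back the root's response to low iron. What the bts-3 allele changes in it is not stated in the labels.

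Expansins loosen the wall at acid pH without cutting its polymers, by weakening the contacts between cellulose and the glycans bound to it. XTH enzymes cut xyloglucan, the hemicellulose that coats cellulose, and rejoin it to another chain or hydrolyse it. Expansin-like proteins are related in sequence, and whether they loosen walls is not established. In roots these families act where cells elongate and where root hairs grow out, and the α-expansin genes EXPA7 and EXPA18 are expressed in root hair cells.

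All values below are log2 expression from robust multi-array averaging (RMA), so a difference of 1 is a doubling of signal. Levels are not comparable between genes. Genes were called where limma's p, adjusted by Benjamini-Hochberg over the 17481 probe sets tested, was under 0.05. Within groups, the mean r of an array with the others ranged from 0.969 to 0.991. The array bts-3 -Fe replicate 1 had the lowest r, and along principal component 1, which held 29.4% of the variance, it lay at 42.0, beside WT -Fe replicates 1 and 2 at 44.2 and 22.1, with the other bts-3 -Fe arrays at -14.7 and -26.7. PYK10, a β-glucosidase typical of roots, was between 12.62 and 13.19 on all 10 arrays. RCA and LHCB4.1, markers of green shoot tissue, averaged 7.55 to 8.03 on WT +Fe, 6.41 to 6.81 on WT -Fe, 7.40 to 7.48 on bts-3 +Fe and 6.5 to 7.53 on bts-3 -Fe. Their part in the results below was not tested.

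**Figure D1:**
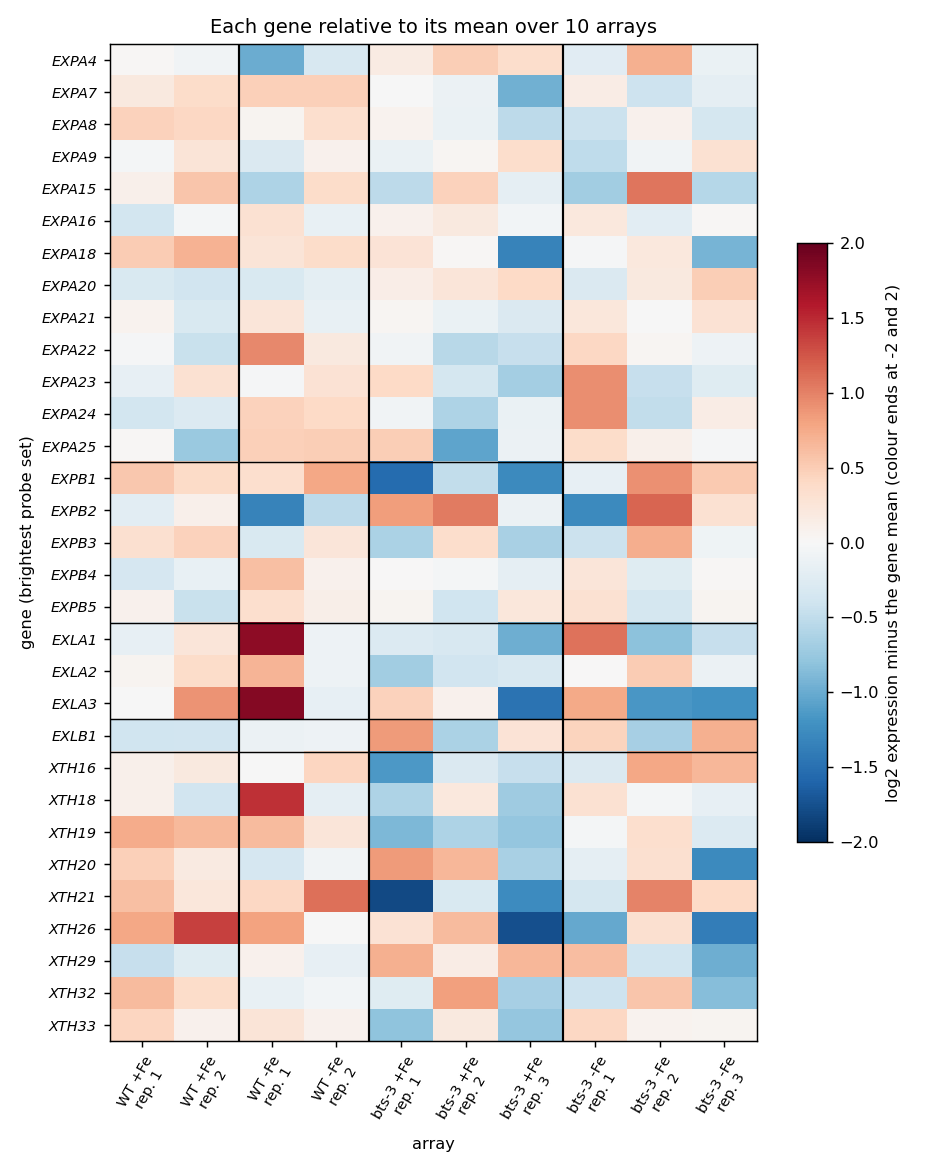
Log2 expression of each of the 31 genes on each of the 10 arrays, relative to the gene's mean over all arrays, with arrays ordered by group and genes by class. EXPB1, XTH19 and XTH21 are below their mean on all 3 bts-3 +Fe arrays, and EXPA18 and XTH26 are lowest on bts-3 +Fe replicate 3.

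With iron present, 21 of the 31 genes had lower mean levels in bts-3 than in WT, against 50.9% of all probe sets tested. The median log2 fold change was -0.28 for the 31 genes and -0.0057 for all probe sets. For the 31 genes it was -0.52 when bts-3 +Fe replicate 2 was left out and -0.16 when replicate 3 was. XTH19 was called and fell, with 1 of 31 genes called against 0.269% of all probe sets. At an unadjusted p under 0.05, 8 genes had lower means (5.39% of all probe sets) and 2 had higher means (3.54%). The arrays of bts-3 and WT did not overlap for 10 genes that were lower and 3 that were higher, against 15.8% and 13.5% of all probe sets. By class, 8 of 9 XTH genes (median -0.72) and all 3 EXLA genes (median -0.67) had lower means, beside 8 of 13 EXPA genes (median -0.023) and 2 of 5 EXPB genes (median 0.14). The 1 EXLB gene, EXLB1, had a higher mean, with 0.55 (SE 0.44).

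XTH19, which encodes a root-expressed XTH, was at 4.18 and 4.1 on the WT +Fe arrays and at 2.55, 2.83 and 2.67 on the bts-3 +Fe arrays. The bts-3 arrays were all more than 1 log2 unit below the WT arrays. The group means were 4.14 ± 0.060 (SD, n = 2) and 2.68 ± 0.14 (SD, n = 3), which is 2.75-fold lower in bts-3 (log2 fold change -1.46, SE 0.22, limma adjusted p = 0.0279). The bts-3 +Fe values lay close to the lower quartiles of these arrays, which were 2.64 to 2.77. Without WT +Fe replicate 1 or 2 the adjusted p was 0.337 or 0.269, and without bts-3 +Fe replicate 1 or 3 it was 0.129 or 0.0697. The log2 fold change stayed between -1.53 and -1.39 when any 1 of the 10 arrays was left out. XTH18 is the next protein-coding gene to XTH19 on chromosome 4, and whether their probes also bind each other's transcripts is not known here. XTH18 was at 4.34 and 3.85 on WT +Fe and at 3.63, 4.45 and 3.53 on bts-3 +Fe, and these groups overlapped, with a difference of -0.23 (SE 0.44).

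**Figure D2:**
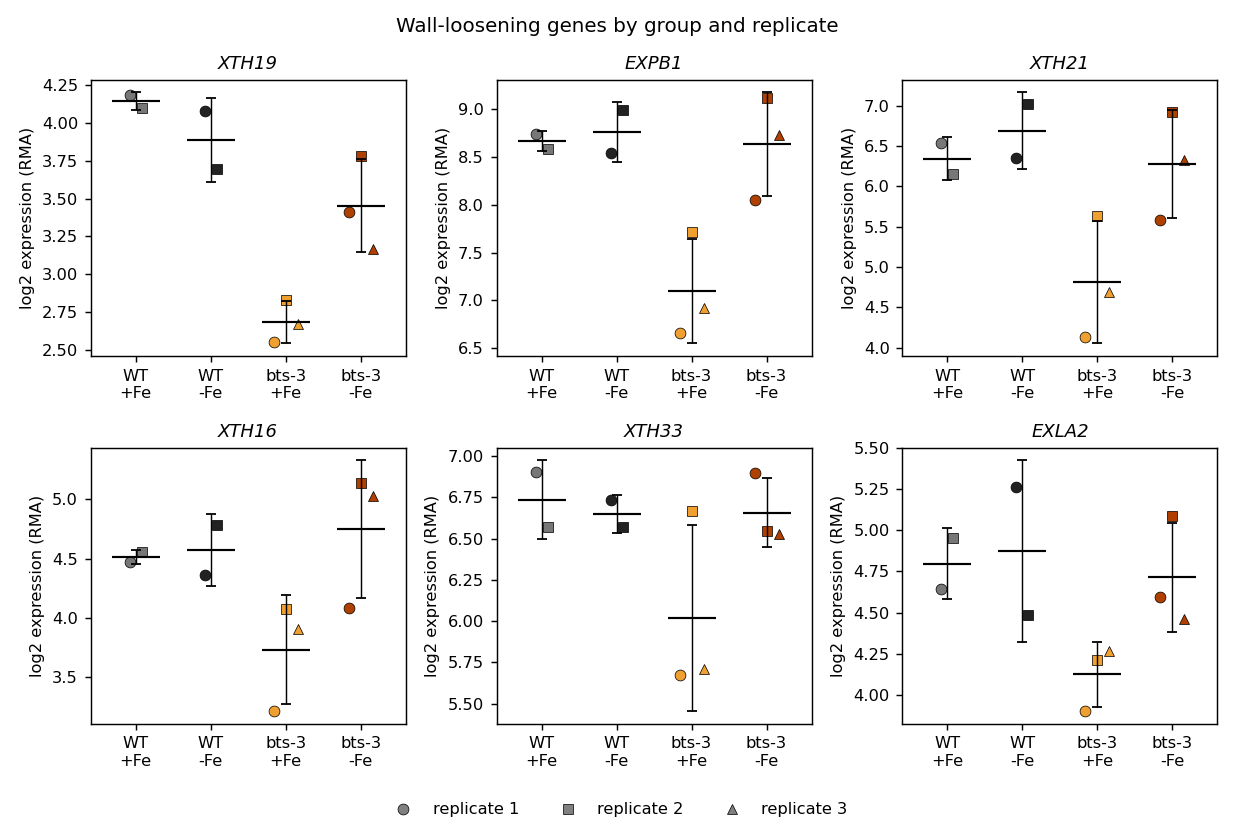
Log2 expression of 6 genes of these families on every array, by group, with symbol shapes for the replicate number, the group mean as a horizontal line and the SD as a bar. All 3 bts-3 +Fe points lie below both WT +Fe points for XTH19, EXPB1, XTH21, XTH16 and EXLA2, and for XTH33 the bts-3 +Fe replicate 2 point overlaps WT +Fe.

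EXPB1, a β-expansin gene, and XTH21, an XTH gene known for its role in primary root growth, had fold changes as large as that of XTH19 and wider spread. EXPB1 was at 8.74 and 8.59 on WT +Fe and at 6.66, 7.71 and 6.93 on bts-3 +Fe. The log2 fold change was -1.56, with an SE of 0.35, and it was not called (limma adjusted p = 0.13). XTH21 was at 6.54 and 6.16 on WT +Fe and at 4.13, 5.63 and 4.68 on bts-3 +Fe. Its log2 difference of -1.53 (SE 0.46, limma adjusted p = 0.263) was not called either. In both genes all bts-3 arrays were below both WT arrays, and replicate 2 was the highest of the 3 bts-3 arrays.

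XTH16 was at 4.47 and 4.55 on WT +Fe and at 3.21, 4.07 and 3.91 on bts-3 +Fe. The expansin-like gene EXLA2 was at 4.64 and 4.95 and at 3.9, 4.21 and 4.26, in the same order. EXPA8, an α-expansin gene, was at 5.15 and 5.10 and at 4.76, 4.55 and 4.17. In these 3 genes the groups did not overlap, and the log2 fold changes were -0.78 (SE 0.34), -0.67 (SE 0.27) and -0.63 (SE 0.23). XTH33, known as a membrane-anchored XTH, had a value of -0.72 (SE 0.29) with overlapping arrays, since bts-3 +Fe replicate 2 was at 6.67 and the other bts-3 arrays at 5.68 and 5.71. The limma adjusted p of these 4 genes lay between 0.425 and 0.541.

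Higher means in bts-3 with iron were seen for XTH29 and EXPA20. XTH29 was at 2.78 and 2.99 on WT +Fe and at 3.95, 3.39 and 3.91 on bts-3 +Fe, a log2 fold change of 0.86 (SE 0.38), the highest of the 31. The lower quartile of each WT +Fe array was 2.70, so XTH29 was among the dim signals there. EXPA20 was at 5.45 and 5.37 on WT +Fe and at 5.89, 6.0 and 6.15 on bts-3 +Fe, a log2 fold change of 0.60 (SE 0.23). Its other probe set had 0.34 (SE 0.19). Neither gene was called (limma adjusted p = 0.551 and 0.444), although the groups did not overlap in either.

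**Figure D3:**
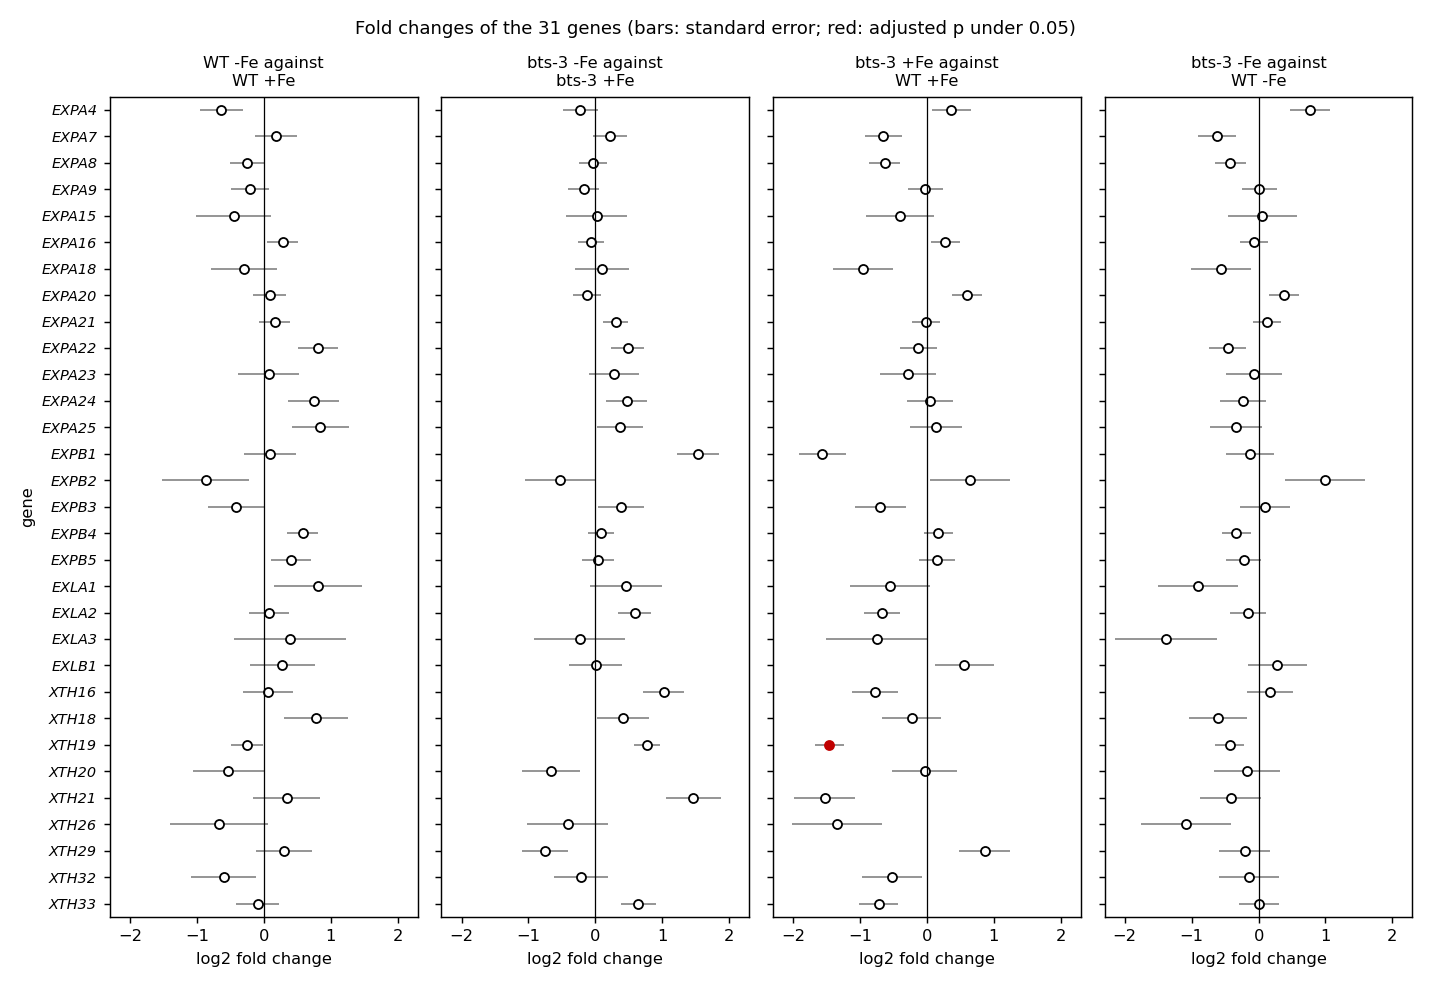
Log2 fold change of each of the 31 genes in the 4 comparisons between groups, with the standard error as a bar and genes called at an adjusted p under 0.05 in red. XTH19 in bts-3 +Fe against WT +Fe is the 1 called point, and XTH16, XTH19, XTH21 and EXPB1 lie left of 0 in that panel and right of 0 in bts-3 -Fe against bts-3 +Fe.

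In bts-3, no gene was called by limma for -Fe against +Fe, against 0.0229% of all probe sets. At an unadjusted p under 0.05, 6 genes had higher means on -Fe (2.87% of all probe sets) and 1 had a lower mean (2.09%). The 6 were EXPB1, XTH21, XTH16, XTH19, XTH33 and EXLA2, and the 1 was XTH29. Some genes with a low mean on bts-3 +Fe relative to WT had no higher mean on -Fe, with -0.038 (SE 0.21) for EXPA8, -0.42 (SE 0.60) for XTH26 and -0.23 (SE 0.68) for EXLA3. The bts-3 +Fe arrays enter this comparison and the previous one, so the values are given side by side and their opposite signs are not counted as a separate result. The arrays did not overlap for 4 genes that were higher and for 0 that were lower, against 4.98% and 3.28% of all probe sets. The median log2 fold change of the 31 genes was 0.10, beside 0.022 for all probe sets, and it ran from 0.047 without bts-3 +Fe replicate 3 to 0.29 without bts-3 +Fe replicate 1.

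In bts-3, samples with the same replicate number deviated together on +Fe and -Fe, so the number was also fitted as a block in that genotype. With this block 2 of the 31 genes were called and rose on -Fe, against 0.252% of all probe sets called in either direction. EXPB1 was at 8.05, 9.12 and 8.73 on bts-3 -Fe, and its -Fe arrays exceeded the +Fe arrays of the same number by 1.39, 1.41 and 1.80. Its log2 fold change was 1.53, with an SE of 0.32 and a limma adjusted p of 0.289 without the block, and an SE of 0.17 and 0.0149 with it. XTH21 was at 5.58, 6.92 and 6.33 on bts-3 -Fe, with differences of 1.46, 1.29 and 1.64 between arrays of the same number. Its log2 fold change was 1.46, with an SE of 0.41 and a limma adjusted p of 0.548 without the block, and an SE of 0.21 and 0.0383 with it. All 3 differences were positive in both genes, and the unpaired +Fe and -Fe arrays of XTH21 overlapped.

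XTH16 was at 4.08, 5.14 and 5.03 on bts-3 -Fe, with a log2 fold change of 1.02 and a limma adjusted p of 0.0504 with the block (0.597 without). XTH19 was at 3.41, 3.78 and 3.17, with a log2 fold change of 0.77 and an adjusted p of 0.165 with the block (0.455 without). EXLA2 was at 4.59, 5.09 and 4.46, with a log2 fold change of 0.59 (adjusted p = 0.551 with the block). In these 3 genes every -Fe array was above every +Fe array. XTH33 was at 6.90, 6.55 and 6.53, with a log2 fold change of 0.64, or 0.96 without bts-3 +Fe replicate 2, and it was higher on -Fe in replicates 1 and 3 and lower in replicate 2. XTH29 was at 3.86, 2.85 and 2.26 on bts-3 -Fe, with the lowest log2 fold change of the 31, -0.76 (SE 0.34), with -1.19 without bts-3 -Fe replicate 1 and -0.39 without replicate 3, and its arrays overlapped with those of +Fe.

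Of all 31 genes, 9 were higher on -Fe in all 3 bts-3 pairs and 4 were lower in all 3. The shares were 29.0% and 12.9%, beside 17.0% and 12.5% of all probe sets. The other 4 of the 9 were EXPB3, EXPA21, EXPA22 and EXPA24, with log2 fold changes between 0.30 and 0.48. The 4 lower ones were XTH29, XTH20, XTH32 and EXPA9. Leaving out bts-3 -Fe replicate 1, the array that stood apart, gave log2 fold changes of 1.82 for EXPB1, 1.81 for XTH21, 1.35 for XTH16 and 0.79 for XTH19, with limma adjusted p between 0.0831 and 0.379.

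In WT the families had no called gene in the response to iron deficiency, against 0.0286% of all probe sets called by limma. At an unadjusted p under 0.05, 2 genes had higher means (4.9% of all probe sets) and 0 had lower ones (3.47%). The median log2 fold change was 0.092 for the 31 genes and 0.013 for all probe sets. For the 31 genes it was -0.030 without WT -Fe replicate 1 and 0.0090 without WT -Fe replicate 2. The 2 WT arrays on each medium did not overlap for 8 higher and 8 lower genes, against 23.2% and 21.1% of all probe sets. Of the genes that were low on bts-3 +Fe, XTH19 had -0.26 (SE 0.24) and EXPB1 had 0.10 (SE 0.39) here. XTH21 had 0.35 (SE 0.50) and XTH16 had 0.063 (SE 0.38). Some other genes with lower means on bts-3 +Fe had larger values in either direction, such as -0.67 (SE 0.74) for XTH26 and 0.81 (SE 0.66) for EXLA1. XTH19 was at 4.08 and 3.69 on WT -Fe, both below the WT +Fe arrays. EXPB1 was at 8.54 and 8.98 and XTH21 at 6.35 and 7.03 on WT -Fe, and both genes overlapped with WT +Fe.

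Among the higher values in WT, EXLA1 had 0.81 (SE 0.66) and XTH18 had 0.79 (SE 0.48), both with overlapping arrays. Others were α-expansin genes from a run on chromosome 5. There EXPA21, EXPA22 and EXPA23 follow one another, and EXPA25 and EXPA24 come after EXP26, whose symbol is outside the rule and which was not counted. Probes for such close copies may bind more than 1 of them, and this was not tested. EXPA25 was at 5.45 and 4.68 on WT +Fe and at 5.91 on both WT -Fe arrays, with the highest log2 fold change of the 31, 0.85 (SE 0.42). EXPA22 was at 3.66 and 3.23 with iron and at 4.64 and 3.87 without it, or 0.81 higher (SE 0.30, limma adjusted p = 0.491), and 0.43 higher without WT -Fe replicate 1. EXPA24 had 0.75 (SE 0.38), and EXPA21 and EXPA23 had 0.16 (SE 0.23) and 0.071 (SE 0.46). EXPA22, EXPA24 and EXPA25 did not overlap between the media in WT, and none was called. In bts-3 their log2 fold changes on -Fe were 0.48 (SE 0.25), 0.47 (SE 0.31) and 0.37 (SE 0.34).

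EXPB4 was at 1.67 and 1.86 on WT +Fe and at 2.60 and 2.09 on WT -Fe, or 0.58 higher (SE 0.23, limma adjusted p = 0.537), and 0.32 higher without WT -Fe replicate 1. EXPB4 and EXPA21 were the 2 genes whose highest array, at 2.60 and 2.75, lay below the highest lower quartile of an array (3.01), so their differences were among dim signals. The other 29 genes were above it on at least 1 array. EXPB2, a β-expansin gene, had the lowest log2 fold change in WT, -0.87 (SE 0.65). Its arrays were at 6.31 and 6.64 with iron and at 5.20 and 6.01 without it. EXPA4 had -0.63 (SE 0.32), with arrays at 6.89 and 6.80 with iron and at 5.88 and 6.54 without it. Both genes were lower on -Fe without overlap in WT, and neither was called.

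Without iron, the XTH genes had a median log2 fold change of -0.21 between bts-3 and WT. The medians were -0.91 for EXLA, -0.071 for EXPA and -0.13 for EXPB genes, and EXLB1 had 0.28. No gene of the 31 was called by limma, and 0% of all probe sets were. At an unadjusted p under 0.05, 1 gene had a higher mean in bts-3 (2.92% of all probe sets) and 0 had lower ones (3.74%). Mean levels were lower in bts-3 for 21 of 31 genes, beside 52% of all probe sets, and the median was -0.17 against -0.014. The arrays did not overlap for 1 higher and 3 lower genes, against 8.28% and 11.3% of all probe sets. The log2 fold changes were -0.43 (SE 0.22) for XTH19, -0.13 (SE 0.35) for EXPB1, -0.42 (SE 0.46) for XTH21 and 0.18 (SE 0.34) for XTH16.

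EXPA4 was the gene with the higher mean, at 5.88 and 6.54 on WT -Fe and at 6.64, 7.57 and 6.73 on bts-3 -Fe. Its groups did not overlap, and its log2 fold change was 0.77 (SE 0.29, limma adjusted p = 0.723), and it was 0.44 when WT -Fe replicate 1 was left out and 0.48 when bts-3 -Fe replicate 2 was. EXPB2 had the highest value, 0.99 (SE 0.60), and its bts-3 -Fe arrays at 5.26, 7.70 and 6.83 overlapped with those of WT. EXLA3 had the lowest, -1.38 (SE 0.76). It was at 7.30 and 5.31 on WT -Fe and at 6.22, 4.30 and 4.26 on bts-3 -Fe, and replicate 1 was the highest in both groups.

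The difference between the iron responses of the genotypes was tested as an interaction, and no gene was called by limma, against 0.00572% of all probe sets. At an unadjusted p under 0.05, 2 genes had a more positive response in bts-3 (2.11% of all probe sets) and 0 a more negative one (2.35%). XTH19 had a difference of 1.03 (SE 0.31, limma adjusted p = 0.848) and EXPB1 of 1.43 (SE 0.50, adjusted p = 0.933), the highest of the 31. With the block in bts-3 the adjusted p was 0.289 and 0.127. XTH21 and XTH16 had differences of 1.12 (SE 0.65) and 0.96 (SE 0.48), and XTH29 had the lowest, -1.07 (SE 0.54). The iron responses of these genes were therefore not shown to differ between bts-3 and WT.

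In the root hair expansins EXPA7 and EXPA18, WT was above bts-3 on both media. Lower means in bts-3 were not particular to them. Of the other 29 genes, 19 had lower means on +Fe and 19 on -Fe, against 50.9% and 52% of all probe sets. The shares of all probe sets that were lower in bts-3 without overlap were 15.8% on +Fe and 11.3% on -Fe. EXPA7 was at 8.56 and 8.73 on WT +Fe and at 8.83 on both WT -Fe arrays. The bts-3 arrays were at 8.35, 8.24 and 7.40 with iron, and 8.51, 7.95 and 8.18 without it. Every bts-3 array was below the WT arrays of its medium, and bts-3 +Fe replicate 3 was the lowest. EXPA18 was at 9.38 and 9.57 on WT +Fe and at 9.13 and 9.23 on WT -Fe. The bts-3 arrays were at 9.14, 8.89 and 7.53 with iron, and 8.84, 9.08 and 7.94 without it. Again the groups did not overlap on either medium, and replicate 3 was the lowest bts-3 array on both.

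**Figure D4:**
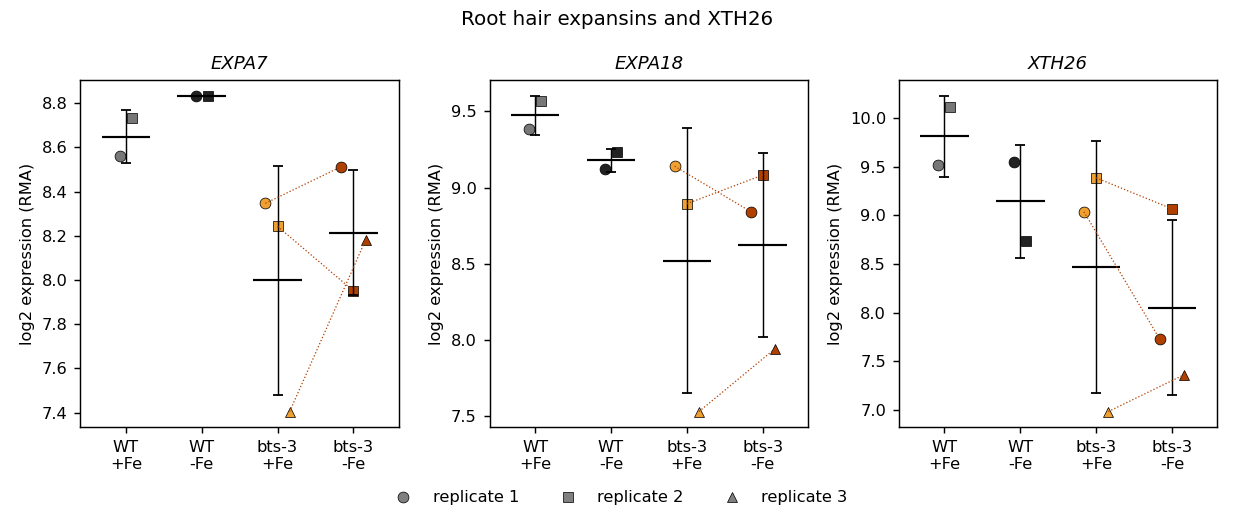
Log2 expression of EXPA7, EXPA18 and XTH26 on every array, by group, with symbol shapes for the replicate number, the mean as a horizontal line, the SD as a bar and dotted lines joining bts-3 arrays of the same number. Replicate 3 is the lowest bts-3 +Fe point in all 3 panels, at 7.40, 7.53 and 6.98.

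Against WT, the log2 fold changes of bts-3 on +Fe were -0.65 (SE 0.28, limma adjusted p = 0.537) for EXPA7 and -0.95 (SE 0.45) for EXPA18. On -Fe they were -0.62 (SE 0.28, limma adjusted p = 0.738) and -0.56 (SE 0.45). None was called. Without bts-3 replicate 3 on both media the values on +Fe were -0.35 (SE 0.23) and -0.46 (SE 0.21), and on -Fe they were -0.60 (SE 0.23) and -0.22 (SE 0.21). For -Fe against +Fe within a genotype, EXPA7 and EXPA18 had 0.18 (SE 0.31) and -0.29 (SE 0.49) in WT and 0.22 (SE 0.25) and 0.10 (SE 0.40) in bts-3. In bulk roots, fewer hair cells and less RNA per hair cell cannot be told apart.

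XTH26, an XTH gene known from root hairs, was at 9.52 and 10.11 on WT +Fe and at 9.55 and 8.74 on WT -Fe. The bts-3 arrays were at 9.04, 9.39 and 6.98 with iron, and 7.73, 9.07 and 7.36 without it. The groups did not overlap on +Fe and overlapped on -Fe, and replicate 3 was the lowest bts-3 array on both media. The log2 fold changes against WT were -1.34 (SE 0.68) and -1.09 (SE 0.68), and neither was called. The spread of XTH26 between replicates (pooled SD 0.96) was the second widest of the 31 genes after EXLA3 (1.08).

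The 5 genes most like the mean of EXPA7 and EXPA18, by Pearson r over the 10 arrays among 16719 other single-gene probe sets, were AT4G30320 (r = 0.996), AT5G04960 (0.982), AT1G61795 (0.981), AT2G22620 (0.976) and AT5G51270 (0.974). All 5 were lowest on bts-3 +Fe replicate 3, where AT4G30320 was at 5.84 and on the other arrays at 6.76 to 8.26. XTH26 ranked 180 (r = 0.829) and EXPA8 ranked 245 (r = 0.807). These values describe 10 arrays in 4 groups that share bts-3 replicate 3 as a low point, and they carry no test.

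The lists of related genes were thinly covered by named probe sets. Of 14 root hair genes, SCN1, which restricts hair outgrowth to a single site, was the 1 measured. It was at 9.73 and 9.37 on WT +Fe and at 9.41, 9.15 and 8.87 on bts-3 +Fe, a log2 fold change of -0.41 (SE 0.20) with overlapping arrays. Without iron, SCN1 was not lower in bts-3. It was at 9.11 on both WT -Fe arrays and at 9.10, 9.18 and 9.22 on bts-3 -Fe, with 0.057 (SE 0.20). Of 13 genes of xyloglucan synthesis and trimming, CSLC4, which makes the glucan backbone of xyloglucan, was the 1 measured, at -0.016 (SE 0.27) for bts-3 against WT on +Fe and -0.16 (SE 0.24) for -Fe against +Fe in bts-3. Neither SCN1 nor CSLC4 was called in any of the 5 comparisons. The 4 plasma membrane proton pumps, the 3 cellulose synthases and the 3 genes of hairless epidermis were not analysed here.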

How the data were processed

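Root RNA (100 ng per array) was measured on 10 Affymetrix arrays. The deposited values are log2 expression per probe set, which the authors made by RMA. The submitters' processing notes name Affymetrix Expression Console. No version or detection call is given in the sources used here. RMA compresses fold changes of dim transcripts. The number of arrays limits the precision.

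Of 28583 probe sets, 17481 were paired with at least 1 gene in the platform annotation. All of these were tested, dim ones included, and 11102 unnamed ones were left out. Group means of all 10 arrays were fitted with limma 3.58.1 in R 4.3.3 (lmFit, eBayes; 6 residual and 4.57 prior degrees of freedom) for 5 two-sided comparisons, each adjusted by Benjamini-Hochberg over all probe sets. The fit without blocks was tested on simulated data with independent arrays, which left out the shared deviations of same-numbered bts-3 arrays. Gene names came from the platform annotation and from RefSeq (TAIR10.1), which also gave the order of neighbouring genes, and no coordinates are printed, since no build is named for the array. No sequence was used.

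The genes, lists and tests were chosen with earlier results of these data known. Values in every array are given for EXPA7, EXPA18, called genes, genes with an unadjusted p under 0.05 and no overlap between groups, and the highest and lowest fold change per comparison. A few other genes were added after their values were seen.

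Deviations from group means correlated at r = 0.302, 0.511 and 0.389 between same-numbered bts-3 arrays and at -0.292 to -0.113 between others, so in bts-3 the pairing by number rests on the data, not on the labels. Deviations cancel out within a group, so the negative values are tied to the positive ones and are no separate support. In WT the correlation between same-numbered arrays was -0.107. Alternatives were replicate blocks, other filters, normalizations, weights and thresholds, and leaving out each array.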

Additional observations from a re-analysis of the deposited data

How the results depend on the processing

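Groups of 2 and 3 arrays and the lack of detection calls limit all results. XTH19 lies near the lower quartile on bts-3 +Fe, and XTH29 on WT +Fe, where signal over background is unknown. The count of called genes stayed the same in 108 of 118 alternatives, pooled over the 5 comparisons. For the iron response in WT, bts-3 against WT on -Fe and the interaction, no gene was called in any alternative. All 10 changes were in the other comparisons, so the pooled count says little about the 1 called gene. Where 0 genes were called, the stricter threshold could not change the count. For bts-3 -Fe against +Fe (0 called), it was 1 with the replicate block within genotype (EXPB1) and 2 with the replicate block in bts-3 alone or with crossed WT numbers, added after the data were seen (EXPB1 and XTH21). The replicate block over both genotypes changed no call. For bts-3 against WT on +Fe (1 called), the count was 2 with array weights (XTH19 and EXPB1), 0 at an adjusted p under 0.01, 0 without probe sets below the median level, where XTH19 itself was left out, and 0 to 1 without single arrays. The adjusted p of XTH19 ran from 0.00492 to 0.337. Blocks within genotype were not run between genotypes, because they leave out the spread between replicates, and the fit of only the arrays of a comparison was not run for the interaction, which uses all arrays. Medians of the 31 genes moved by less than the SD between replicates (0.372) in all 113 alternatives, and this SD is wider than the medians. Without single arrays they ran from -0.030 to 0.10 in WT, 0.047 to 0.29 in bts-3, -0.52 to -0.16 between genotypes on +Fe, -0.31 to -0.17 on -Fe and -0.10 to 0.22 for the interaction. Values of EXPA7 and EXPA18 that were near 0 changed sign. For -Fe against +Fe in bts-3, EXPA7 ran from -0.080 to 0.39 and EXPA18 from -0.39 to 0.44 without single arrays, and they were -0.063 and -0.054 without bts-3 replicate 3 on both media (added later), with EXPA18 at -0.054 with array weights. For the interaction, EXPA7 ran from -0.26 to 0.21 and EXPA18 from -0.10 to 0.74 without single arrays, and EXPA7 was -0.072 with centred arrays, -0.12 with array weights and -0.25 without bts-3 replicate 3. Centring arrays moved the median of all probe sets in WT from 0.013 to 0.11, and no call among the 31 genes changed with it.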

Other observations

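WT -Fe replicate 1 and bts-3 -Fe replicate 1 lay furthest up the first principal component, at 44.2 and 42.0. EXLA1 was at 8.91 and 8.20 on these arrays and between 6.13 and 7.35 on the other 8. EXPB2 was at 5.20 and 5.26 on them and between 6.01 and 7.70 on the other 8. This was not particular to EXLA1 and EXPB2. EXPA22 was at 4.64 and 4.09 on them and at up to 3.87 elsewhere. XTH18, EXPA24, EXPA16, EXPB4 and EXPB5 were also higher on both than on any other array. EXPA9 was at 8.39 and 8.18 and EXPA15 at 6.16 and 6.08, both lower than on any other array. The share of all probe sets that set these arrays apart was not counted. The expansin-like genes other than EXLA1 overlapped. EXLA3, the next neighbour of EXLA1 on chromosome 3, was at 7.30 and 6.22 on them and at up to 6.37 elsewhere, EXLA2 at 5.27 and 4.59 and at up to 5.09 elsewhere, and EXLB1 at 6.42 and 6.99 and at up to 7.38 elsewhere. WT -Fe replicate 2, next on that component at 22.1, had EXLA1 at 7.01, below the 7.35 of WT +Fe replicate 2. The mean level of the shoot markers RCA and LHCB4.1 was 6.81 and 6.5 on the first arrays and 6.41 on WT -Fe replicate 2. The component was computed from these same values, including those of the genes named here. Differences along it therefore follow in part from how the arrays were picked. They were noticed in the data and carry no test.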
